A study of Mus musculus with 12 samples.

Results

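The comparison of wig-1 ASO with control ASO asked which transcripts of the mouse striatum moved when the wig-1 messenger itself was targeted, with oligonucleotide of the same chemistry injected on both sides. It rests on 8 of the 12 arrays of the series, 4 from wig-1 ASO-treated mice and 4 from control ASO-treated mice, chosen by the treatment each sample's label gives. The other 4 arrays, from mice given PBS, are not on either side of the comparison, but they entered the detection filter and the pooled variance of the test and are quoted to place a value. All mice were BACHD animals, 5 months of age, which carry a full-length mutant human huntingtin gene under its own regulatory elements on an FVB background. The treated mice received a single injection into the striatum, so that every animal of the compared groups had both a needle track and a phosphorothioate oligonucleotide in the tissue. The study took 1 wig-1 ASO forward and set it against 1 control oligonucleotide. Loss of wig-1 and other effects of that ASO's sequence therefore cannot be told apart here. The labels call the tissue brain, and the study's methods call it striatum. Medium spiny neuron markers, the genes that define striatal projection neurons, were present throughout, since 19 of 22 were measured and all 19 were detected on all 8 ASO arrays. No wild-type animals were on the arrays, and each array was of 1 mouse, with whole tissue in place of sorted cells, and the week at which the RNA was taken is not given in the sources used here.

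An ASO of this design is a short DNA core flanked by 2′-O-methoxyethyl-modified ends, and RNase H cuts the RNA to which the core binds. Wig-1 is the product of Zmat3, a zinc finger gene that the tumour suppressor p53 turns on, and it binds double-stranded RNA and AU-rich stretches of messengers. The control ASO has the same backbone and the same modified ends and matches no known gene. Microglia, the resident macrophages of the brain, and astrocytes respond to injury and to foreign nucleic acid by turning on complement, Fc receptors, lysosomal enzymes and antigen presentation, whereas striatal neurons are recognised by channels, receptors and adhesion molecules, many of them encoded by very long genes.

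The oligonucleotides with which the study measured the target by RT-PCR are shown because they mark the messenger that the wig-1 ASO was made against. They read 5′ to 3′ and belong to Zmat3 on mouse chromosome 3.
Zmat3 forward primer: tggccaccaggaggaatatg
Zmat3 reverse primer: gggagcgggcattgaagt
Zmat3 probe: atccagtccagagcaattcaggccct

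Zmat3, the target, separated the groups completely. On the only probe of the array that carries its symbol the log2 signal of wig-1 ASO replicates 1 to 4 was 6.89, 6.63, 6.77 and 5.95. In control ASO replicates 1 to 4 it was 8.48, 8.47, 8.53 and 8.31. The gap between the groups was more than 1 log2 unit, and replicate 4 of the wig-1 ASO group had the lowest signal of all. The group means were 6.56 ± 0.42 and 8.45 ± 0.10 (SD, n = 4 each), which puts the wig-1 ASO group at 27.1% of the control ASO signal. The difference was -1.89 ± 0.18 (log2, SE), with an adjusted p of 0.00278 in the limma fit over all 12 arrays, and it passed in all 12 fits that left out 1 array. Control ASO differed from PBS by -0.05 for the same probe. Trp53 and Immp2l were not analysed here, since no probe carried either symbol in the annotation used.

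Huntingtin, which the study followed as protein, did not pass this comparison, nor did the measured genes besides Zmat3 that it followed by RT-PCR. The fall it reports was in mutant huntingtin protein, and it saw no significant change in the mutant messenger or in wild-type huntingtin protein. The mutant gene is human, whereas the Htt probe is annotated to the mouse gene. Whether it also reads the human messenger was not tested. Htt gave 3.56, 3.68, 3.0 and 2.27 with wig-1 ASO and 4.02, 4.13, 2.24 and 4.0 with control ASO, a weak signal, detected on 3 arrays of each group, with overlapping values (-0.47 ± 0.64, limma adjusted p 0.813). Prkce, an isoform of protein kinase C, was 5.37 to 5.57 against 5.62 to 6.46, without overlap, yet its difference of -0.54 had a limma adjusted p of 0.146. The guidance receptor Robo2 (-0.44), Auts2 (-0.28) and Plekha5 (-0.38) had overlapping groups and limma adjusted p of 0.218, 0.359 and 0.644. All 4 of these latter genes, Prkce included, stood lower against PBS than against control ASO, at -0.67, -0.79, -0.47 and -0.62 for Prkce, Robo2, Auts2 and Plekha5 in that order. The limma adjusted p against PBS were 0.0425, 0.0217, 0.0745 and 0.312. The study chose its genes against PBS, and by RT-PCR in BACHD striatum it reports these 4 as lower and Gpnmb as higher than in control animals. Gpnmb, a lysosomal membrane glycoprotein of phagocytes, spread from 6.32 to 10.98 with wig-1 ASO and from 5.25 to 7.33 with control ASO, so that its 6.19-fold difference did not pass (limma adjusted p 0.205). Against PBS wig-1 ASO stood 4.57 higher for Gpnmb (limma adjusted p 0.0217).

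A probe entered the test if at least 4 of the 12 arrays gave it a detection p-value under 0.01, and each gene was read from its kept probe of highest mean signal. Ccl8, Tmem273 and Fcgr4, among others, met this limit only through the wig-1 ASO arrays. A rise was the only change that such genes could show. In this test 79 of 10031 genes rose (0.788% of all genes tested) and 29 fell (0.289%), which makes 108 genes (1.08%) at a limma adjusted p under 0.05. At the level of probes, 162 of 17188 were called (0.943%), of which 109 were higher (0.634%) and 53 lower (0.308%), and 20 of them carried no gene symbol. Among called genes named below, Fcrls, Timp1, Casp8, Aif1, Alox5ap, Itgbl1 and Dhdds each passed on only 1 of 2 kept probes. Rises were larger than falls. A change of at least 2-fold was seen in 57 of the 79 risen genes and in 11 of the 29 fallen genes, and the medians were 1.20 and -0.87 on the log2 scale. The groups of 4 did not overlap for any of the 108 genes. The mean was lower after wig-1 ASO for 52.2% of all genes. Without any test, 475 genes (4.74%) had all 4 wig-1 ASO arrays above all 4 control ASO arrays and 457 (4.56%) had them below, and 14.7% of genes had an unadjusted p under 0.05. An exact permutation test of 4 arrays against 4 cannot go below 0.029, which it reached for each of these genes.

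The number of called probes depended strongly on the arrays and on the statistic. With only the 8 ASO arrays fitted 7 probes passed, with the SAM statistic 1 did, and Zmat3 itself had a limma adjusted p of 0.0277 in the former fit and an adjusted p of 0.0614 with SAM. Leaving out wig-1 ASO replicate 1 raised it from 162 to 545, and leaving out wig-1 ASO replicates 2, 3 and 4 lowered it to 5, 15 and 23. It fell to 10, 5, 42 and 9 without control ASO replicates 1 to 4 and to 21, 38, 28 and 89 without PBS replicates 1 to 4, which enter only through the pooled variance. Zmat3, Sphk1, Tmem273 and Wfdc17 passed in all 12 of these fits. In all, 14 of the 108 genes passed in 6 or more, and 94 in fewer. Among genes described below, Gfap, Timp1, Lcn2, Fcrls, P2ry13, Laptm5, Adgrl3, Ephb1 and Itgbl1 each passed in only 1 of the 12. So did Cyba, C4a, Ftl1, Slc40a1, Lgals1, Irf5, Psmb8, Cacng2, Gpc5, S100a11, S100a13 and H4c1. For each of these it was the fit without wig-1 ASO replicate 1. Gm3696 and LOC100041504 also passed in only 1, which was another fit, and Fcna passed in none. Without wig-1 ASO replicate 1, 286 genes rose (2.85%) and 87 fell (0.867%), and 105 of the 108 were among those called. The list counts given below without this array come from that fit and stand beside those shares of all genes. No other fit that left out 1 array raised the number of calls, so these counts are no added support for a list. Wig-1 ASO replicate 1 had 15228 detected probes, the fewest of the 12, against 15912 to 17198 on the other ASO arrays.

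**Figure D1:**
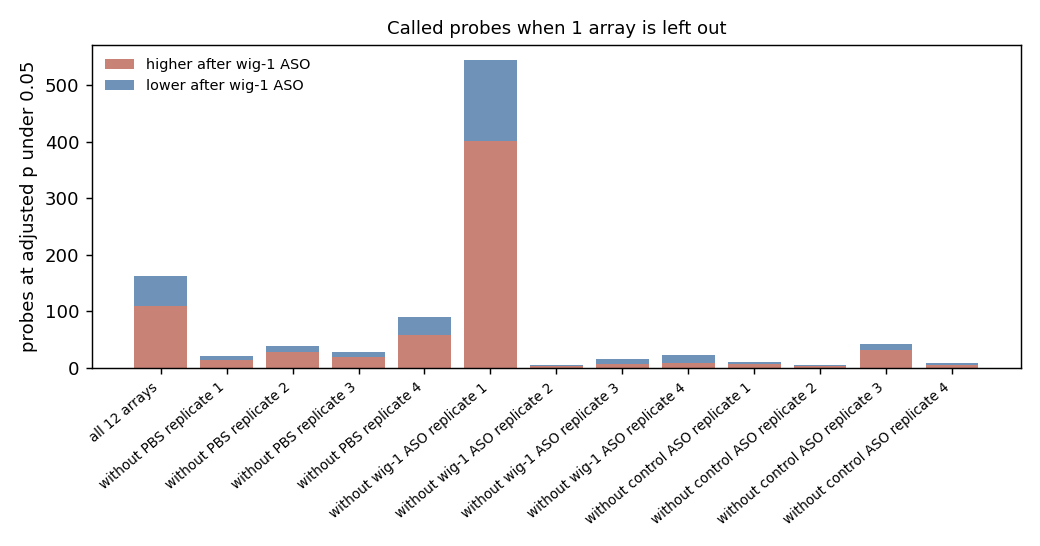
Number of probes at a limma adjusted p under 0.05 (vertical axis) in the fit over all 12 arrays and in the 12 fits that each left out 1 array (horizontal axis), split into probes higher and lower after wig-1 ASO. The count is 162 with all arrays, 545 without wig-1 ASO replicate 1 and between 5 and 89 without any other array.

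Each ASO was also set against PBS. Wig-1 ASO against PBS called 2.83% of all genes as higher and 0.977% as lower. Of the 79 risen genes 70 also passed against PBS, and of the 29 fallen genes 24 did. The median difference from PBS over the risen genes was 1.36 for wig-1 ASO and 0.07 for control ASO, and over the fallen genes it was -0.84 and 0.00. These comparisons share arrays, so that they are given side by side and not as separate support. The genes were called on the wig-1 ASO and control ASO arrays, so the values do not settle on which side the difference arose. Control ASO stood above PBS for 43 of the risen genes and below it for 36, and no gene passed between control ASO and PBS (631 genes, 6.29%, had an unadjusted p under 0.05). Wfdc17, Timp1 and Arl11 were among the genes that lay more than 1 log2 unit above PBS after control ASO also, at 1.41, 1.18 and 1.04, and were detected on 1, 2 and 1 of the PBS arrays. In contrast, 9 risen and 5 fallen genes did not pass against PBS. Urah, an enzyme of urate breakdown, was such a case, with wig-1 ASO 0.82 above control ASO, 0.29 above PBS, and control ASO 0.52 below PBS.

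**Figure D2:**
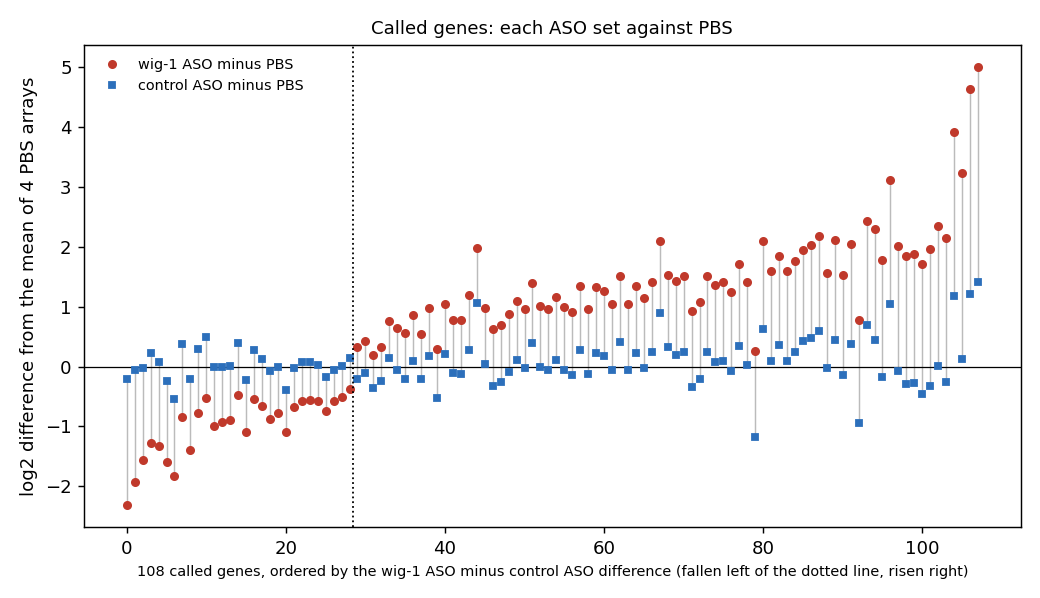
Log2 difference from the mean of the 4 PBS arrays (vertical axis) of wig-1 ASO (circles) and control ASO (squares) for the 108 called genes, ordered from the largest fall to the largest rise between wig-1 ASO and control ASO; a grey line joins the values of 1 gene. Most squares lie near 0 while the circles spread to -2.32 and 5.01.

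The largest fall and several of the others belonged to uncharacterised or family genes. The log2 signal of 4930555G01Rik was 5.14, 4.42, 5.28 and 3.89 with wig-1 ASO and 6.58, 6.93, 6.84 and 6.84 with control ASO, a fall to 23.1% of control (limma adjusted p 0.0118, 10 of 12 fits). Gm5797 fell to 39.0% (limma adjusted p 0.0158, 9 of 12 fits). Gm3696 was detected on no wig-1 ASO array, and its fall was at least 1.23-fold (limma adjusted p 0.0498). At least 1.23-fold means that undetected signals were raised to the lowest detected signal of their array, and the same rule is used for all such folds here. All 3 are annotated on chromosome 14 and belong to a family of near-identical copies, whose probes can share target sequence, so that which copies moved cannot be told apart.

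Sphk1, which makes the lipid messenger sphingosine-1-phosphate, fell with little scatter. Its log2 signal was 4.75, 4.99, 4.73 and 4.84 with wig-1 ASO and 5.81, 6.21, 5.93 and 6.18 with control ASO. The wig-1 ASO arrays lay within 0.3 of each other and at least 0.8 below any control ASO array. The fall to 43.5% of control had a limma adjusted p of 0.00427 and passed in all 12 fits, and control ASO itself was 0.37 above PBS. Stc1, a secreted glycoprotein hormone, gave a related pattern: it fell by 1.01 against control ASO (limma adjusted p 0.042), with a difference from PBS of -0.52 (limma adjusted p 0.159) and with control ASO 0.49 above PBS. Dhdds, a subunit of the enzyme that makes dolichol, fell by 1.07.

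Genes of the neuronal surface made up another group of falls. Of 20 measured adhesion molecules of neurons and synapses, 19 had a lower mean with wig-1 ASO, 3 fell and 1 rose (median -0.47, against -0.01 over all genes), and 7 lay wholly below control ASO. Without wig-1 ASO replicate 1 there were 6 falls. Cntnap2, a neurexin relative that gathers potassium channels beside the node of Ranvier, had log2 signals of 7.22, 7.05, 7.52 and 6.34 against 8.59, 8.39, 8.53 and 8.23. It fell to 37.8% of control (limma adjusted p 0.0251, 8 of 12 fits), with control ASO 0.08 above PBS. Its other kept probe, with overlapping groups, differed by -0.29 and did not pass (limma adjusted p 0.458). The adhesion receptor Adgrl3, also called latrophilin 3, was 5.70, 5.41, 5.57 and 5.13 against 6.24, 6.58, 6.06 and 6.37, a fall to 55.0% (limma adjusted p 0.0422), and 3 of its 5 kept probes fell. Ntm, a cell surface protein of the neurotrimin family, fell to 69.8% (limma adjusted p 0.0498). Of the members that did not pass, Csmd1 (-1.03, limma adjusted p 0.0675) and Nrxn3 (-0.74, limma adjusted p 0.0893) came nearest. The exception was Lrrtm1, a synaptic leucine-rich repeat protein, which rose by 0.56 (limma adjusted p 0.042), with control ASO 0.36 below PBS.

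Channels and receptors were also lower in most cases. All 20 measured potassium channel genes had a lower mean with wig-1 ASO (median -0.37), of which Kcnma1, the pore of the large-conductance calcium-activated channel, fell. It gave 6.57, 6.59, 6.59 and 6.16 with wig-1 ASO and 7.51, 7.33, 6.93 and 7.23 with control ASO, a fall by 0.77 that was seen on 2 of 3 kept probes (limma adjusted p 0.0449, 2 of 12 fits). Cacng2, an auxiliary subunit of AMPA receptors, fell by 0.87, with control ASO 0.40 above PBS. Among 14 glutamate and GABA receptor genes 13 had a lower mean (median -0.25) and none passed. Ephb1, a guidance receptor kinase, was the fallen member among 20 axon guidance genes (-0.65), Rgs7, which shortens G protein signals, among 13 RGS genes (-0.52), and Pcdha12 among 12 cadherins. Pcdha12 was detected on 3 control ASO arrays and no wig-1 ASO array, with a fall of at least 1.13-fold (limma adjusted p 0.042). Of 13 pan-neuronal genes Nefm, the medium neurofilament subunit, fell by 0.82 on 2 of its 3 kept probes (limma adjusted p 0.041). The other 12 did not pass, and the list median was -0.05. In whole tissue, fewer cells of a type and less RNA per cell cannot be told apart.

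The medium spiny neuron list gave no call, with 17 of 19 members lower and a median of -0.24. Its mean relative to the control ASO mean was 0.33, -0.69, -0.44 and -0.23 on wig-1 ASO replicates 1 to 4 while the control ASO arrays ranged from -0.21 to 0.21, so that replicate 1 lay above every control array and the other 3 below. Without that array 3 members fell and the median was -0.46. The immediate early genes, which neurons switch on within minutes of activity, had a lower mean in 9 of 9 cases (median -0.45) and 4 were wholly below control ASO, but none passed. Fos was 6.61 to 7.38 against 7.46 to 7.81 (limma adjusted p 0.0681). For this list the control ASO group stood above PBS (median 0.30) while wig-1 ASO stood at -0.17.

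The fallen genes were a mixture of short and long gene bodies. In the RefSeq annotation of GRCm38.p6, read only for the distance from first to last base, the median span was 128 kb for the 29 fallen genes, 10.1 kb for the 79 risen genes and 23.2 kb for the 10016 genes with a span. Under 100 kb were 14 of the fallen genes, 7 of them under 10 kb, Sphk1, Nefm and the globins included. A span of 200 kb or more was found for 12 of the 29 fallen genes (41.4%), 0 of the 79 risen genes and 5.77% of all. The shift was not limited to called genes. Across bins of under 10, 10 to 30, 30 to 100, 100 to 200, 200 to 500 and 500 kb or more, the share of genes with a lower mean after wig-1 ASO was 43.0%, 47.5%, 56.9%, 63.4%, 76.0% and 93.5%. The median log2 difference over the same bins went from 0.04 to -0.33.

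The array medians over the 153 genes of 500 kb or more, relative to the control ASO mean, were -0.174, -0.334, -0.295 and -0.517 on wig-1 ASO replicates 1 to 4. On control ASO replicates 1 to 4 they were 0.078, 0.036, -0.039 and -0.033. All 4 wig-1 ASO arrays therefore lay below all 4 control ASO arrays, and against PBS the medians were -0.42 for wig-1 ASO and -0.08 for control ASO. Long genes are frequent among neuronal genes, so the bins were also read by membership of the 12 neuronal lists. Of 517 genes of 200 kb or more in none of these lists, 78.7% were lower (median -0.19). Of 106 genes under 200 kb that are in such a list, 75.5% were lower (median -0.17). The 61 genes that were both long and listed had a median of -0.44, and the 9332 that were neither had a median of 0.00. These are descriptions with no test, genes are not independent replicates, and which other property of long genes moved with span was not tested.

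**Figure D3:**
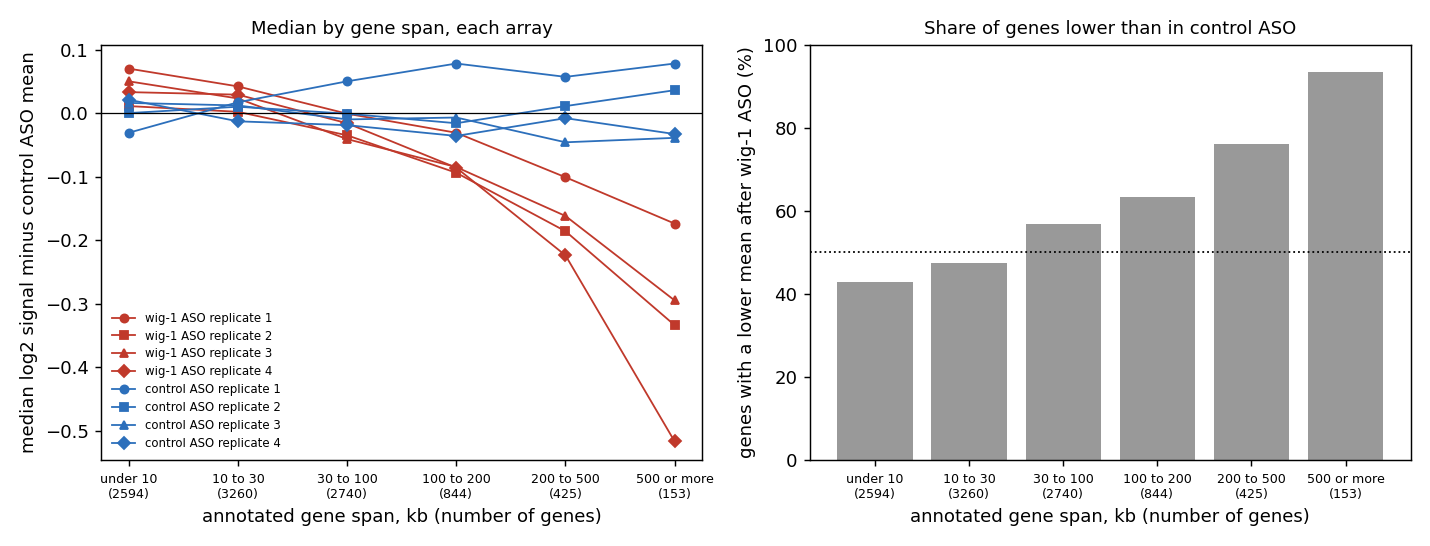
Left, median log2 signal minus the control ASO mean (vertical axis) over genes in 6 bins of annotated span in kb (horizontal axis, number of genes in brackets), 1 line for each ASO array. Right, share of genes in each bin with a lower mean after wig-1 ASO, in percent, with 50% dotted. The wig-1 ASO lines lie wholly below the control ASO lines in the bins from 200 kb and reach -0.174 to -0.517, and the share rises from 43.0% to 93.5%.

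Red blood cell transcripts were lower after wig-1 ASO. Hbb-bt, an adult beta-globin gene, had log2 signals of 10.57, 10.40, 11.12 and 11.14 against 11.66, 11.65, 11.92 and 11.97, a fall to 50.3% of control (limma adjusted p 0.041), and 2 of its 4 kept probes fell. Hba-a1, an alpha-globin gene, fell to 53.7% (limma adjusted p 0.042). All 5 measured members of the list had a lower mean, 4 without overlap, and control ASO and PBS were alike, with a median difference of 0.01 between them. The globin copies are near-identical, so that their probes may read each other.

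Slc22a8, an organic anion transporter of choroid plexus, meninges and brain endothelium, fell by 1.49 (limma adjusted p 0.042). Only 1 of the 4 wig-1 ASO arrays detected it, against all 4 of the control ASO group, so that the size of the fall rests on values below detection. All 8 choroid plexus and ependyma markers had a lower mean after wig-1 ASO (median -0.76), with overlapping groups and no call: the list mean was -2.57, 0.61, 0.74 and -2.37 on wig-1 ASO replicates 1 to 4 and 0.80, -1.73, 0.76 and 0.18 on the control ASO arrays, and Ttr, its leading marker, ranged from 6.61 to 13.62 within the wig-1 ASO group. Markers of thalamus, hypothalamus and septum varied in a like way, from -0.80 to 0.96 and from -0.56 to 0.57. Their part in any single call was not tested. Cd209f, a C-type lectin, was detected on no wig-1 ASO array and fell by at least 1.04-fold.

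The 2 largest rises were of genes known from phagocytes. Wfdc17, a small secreted protein of mouse macrophages, gave 6.78, 7.44, 7.16 and 7.22 with wig-1 ASO and 3.57, 3.67, 3.59 and 3.38 with control ASO. Both groups were tight and lay 3 log2 units apart, a 12.1-fold rise (limma adjusted p 0.00278) that passed in all 12 fits. Fcgr4, an activating receptor for IgG, gave 4.47, 7.51, 6.19 and 6.34 against 2.04, 2.61, 3.48 and 2.72, a 10.7-fold rise (limma adjusted p 0.0287, 5 of 12 fits) in which 3 of the control ASO values lay below detection and replicate 1 was the lowest of the wig-1 ASO arrays. Arl11, a small GTPase, rose by 2.07 (3 control ASO arrays with detection), and Alox5ap, which feeds arachidonic acid into leukotriene synthesis, by 1.60.

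**Figure D4:**
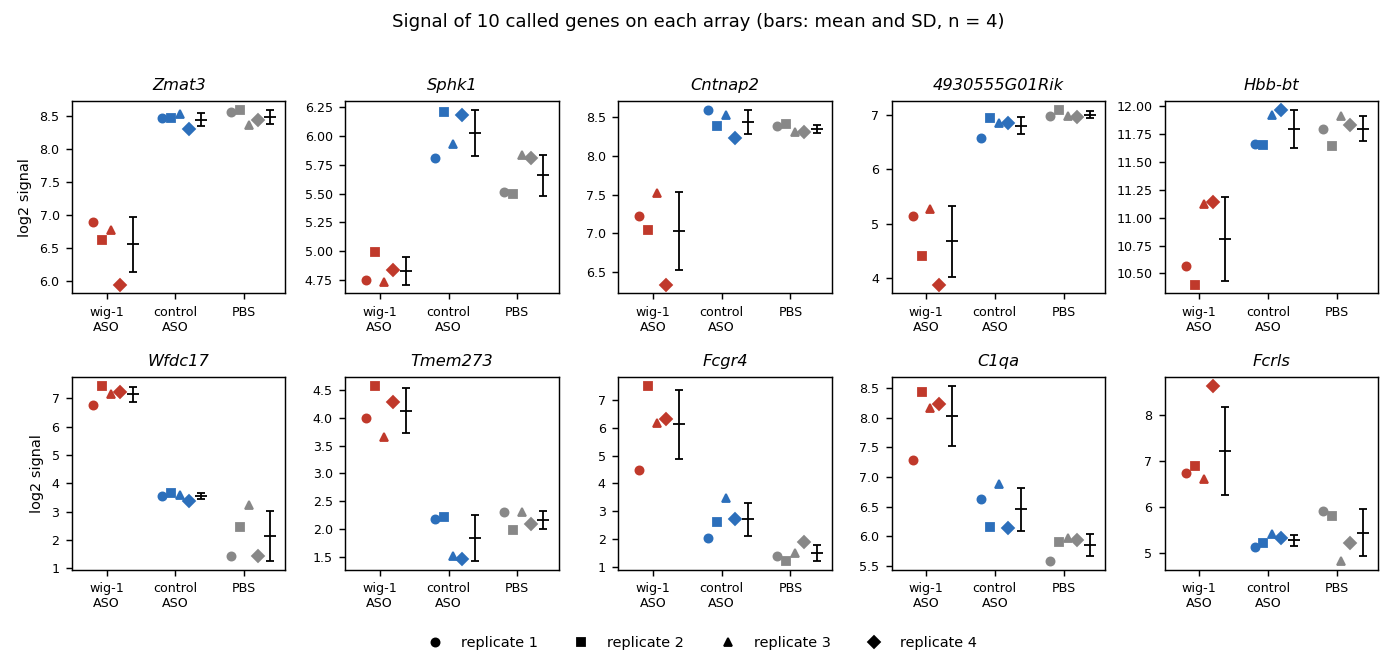
Log2 signal (vertical axes, not starting at 0) of 5 fallen genes (top row) and 5 risen genes (bottom row) on each of the 12 arrays by group (horizontal axes). Symbols mark replicates 1 to 4 and bars the mean and SD of 4 arrays. For each gene the wig-1 ASO points lie wholly below (Zmat3 5.95 to 6.89) or wholly above (Wfdc17 6.78 to 7.44) the control ASO points, and Fcrls has 1 wig-1 ASO array, at 8.64, far above the other 3.

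Complement genes were among the rises. Of 7 measured genes 4 rose, the 3 chains of C1q, which starts the classical pathway, and Serping1, which inhibits it, and the list median was 1.32. Without wig-1 ASO replicate 1 there were 5 rises. C1qa gave 7.29, 8.44, 8.17 and 8.23 with wig-1 ASO and 6.62, 6.15, 6.89 and 6.13 with control ASO, a 3.0-fold rise (limma adjusted p 0.0335). C1qb and C1qc rose 2.75-fold and 3.33-fold. Serping1 rose 2.12-fold, with 6.91 to 7.41 against 5.85 to 6.33 (limma adjusted p 0.0251, 6 of 12 fits). Control ASO was 0.60 above PBS for C1qa and 0.13 below it for Serping1. C4a rose 2.96-fold, on a pair of probes that may also read the near-identical C4b, and Fcna, a ficolin that starts the lectin pathway, rose by 2.40, with detection on 2 of the control ASO arrays (limma adjusted p 0.0498, lost without wig-1 ASO replicate 1 at 0.0547).

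Among Fc receptors and the oxidase of phagocytes 3 of 7 rose, 6 without wig-1 ASO replicate 1, with a median of 1.66: besides Fcgr4 these were Fcgr3 (2.81-fold), another IgG receptor, and Cyba (3.17-fold), the small membrane subunit of the NADPH oxidase. Of 10 general microglia and macrophage markers, all had a higher mean and 2 rose. Laptm5, a lysosomal membrane protein of blood-derived and microglial cells, rose 2.14-fold, and Aif1, the calcium-binding protein known as Iba1, 1.78-fold. Adgre1 did not pass on its brightest kept probe (limma adjusted p 0.0597) but did on its other kept probe (limma adjusted p 0.041). The list mean was 0.16, 1.60, 1.11 and 1.26 on wig-1 ASO replicates 1 to 4 and -0.37 to 0.42 on the control ASO arrays, so that replicate 1 lay within the control range. Without it 7 of the 10 rose.

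Genes of resting microglia were not lower as a list. Of 11 measured homeostatic genes 2 rose, none fell and the median was 0.46. The mean was higher for 9 members and lower for 2. Wholly above the control ASO arrays lay 4 members, and wholly below them lay 1, which did not pass. P2ry13, a purinergic receptor, gave 6.84, 6.92, 6.77 and 6.64 against 6.11, 6.21, 5.84 and 6.23 (1.62-fold, limma adjusted p 0.042). Fcrls, an Fc receptor-like scavenger protein of mouse microglia, gave 6.73, 6.89, 6.61 and 8.64 against 5.12, 5.22, 5.40 and 5.32 (3.87-fold, limma adjusted p 0.0498). Tmem119 (0.79, limma adjusted p 0.052) and P2ry12 (0.39, limma adjusted p 0.0628) came close to the limit. The list mean of replicate 1 was 0.38, against 0.41 to 0.62 on the other wig-1 ASO arrays and at most 0.10 on the control ASO arrays. Without replicate 1 the list had 6 rises and a median of 0.67.

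Disease-associated microglia genes gave no call among 14, with a median of 0.75, and the largest single differences were 2.63 for Gpnmb, 2.3 for Lyz2 and 2.22 for the galectin Lgals3. Lyz2, lysozyme, was 8.06, 11.21, 10.58 and 9.58 with wig-1 ASO and 7.29, 7.74, 8.36 and 6.83 with control ASO, so that replicate 1 fell inside the control range and the rest outside (limma adjusted p 0.0943). The list mean of replicate 1 was 0.03, against 1.75, 1.27 and 1.11 on replicates 2 to 4. Without replicate 1 the list had 6 rises. The 17 lysosomal genes behaved alike, all with a higher mean (median 0.86), with 1 rise, Hexa, in the full comparison and 12 without replicate 1. These genes were also above PBS after control ASO, with list medians of 0.29 and 0.30.

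Antigen presentation followed. All 6 measured MHC class II genes had a higher mean (median 1.41), 4 of them without overlap, and none passed on its brightest kept probe. Of the 3 kept probes of H2-Ab1, 1 that was not the brightest rose. The invariant chain Cd74 was 5.83 to 7.58 against 5.47 to 5.62 (limma adjusted p 0.0837), and without replicate 1 the list had 5 rises. For this list control ASO did not stand above PBS (median -0.06). Of 11 MHC class I genes Psmb8, an immunoproteasome subunit, rose by 1.05 (list median 0.80). Interferon-stimulated genes gave 2 rises of 13 (median 0.68). Ifitm3, which blocks viral entry at membranes, gave 8.85, 9.92, 9.29 and 9.47 against 8.27, 8.05, 8.21 and 8.18 (2.3-fold, limma adjusted p 0.0349). Irf9, the DNA-binding subunit of the interferon-activated factor ISGF3, rose 2.02-fold, and its control ASO mean was 0.01 below PBS. Irf5, a factor downstream of Toll-like receptors, was the rise among 10 genes of nucleic acid sensing (1.32, detected on 2 control ASO arrays, list median 0.47).

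Chemokines and markers of cells from outside the brain included several of the largest rises. Ccl8, a monocyte attractant, was detected on all 4 wig-1 ASO arrays (4.09, 4.5, 4.63 and 3.29) and on no control ASO or PBS array, a rise of at least 2.37-fold (limma adjusted p 0.0408). Ccl21a and Ccl21c, near-identical ligands of the lymph node homing receptor CCR7, rose 4.37-fold and 4.48-fold (limma adjusted p 0.0251 and 0.0158, 8 and 10 of 12 fits). They were detected on 3 and 2 control ASO arrays. Wig-1 ASO replicate 1, at 5.70 and 5.33, was below replicate 2 for both but was not the lowest array of its group. The Ccl21 copies and LOC100041504, a further copy that rose by 2.17, may share probes, so they stand as 1 observation. S100a9, a neutrophil calcium-binding protein, was detected on all wig-1 ASO arrays and no control ASO array, at least 1.40-fold higher, but 2 of the 4 PBS arrays also detected it. In the list of border macrophages and recruited monocytes or neutrophils, 2 of 9 measured genes rose, Wfdc17 and S100a9, with a median of 1.71. Of 16 lymphocyte markers 14 had no kept probe under their symbol, whether too dim or absent from the annotation, and neither of the other 2 passed. The cytokine Tgfb1 rose by 1.68 and, with Ccl8, made up the rises among 9 chemokines and cytokines (median 1.30).

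Tmem273, an uncharacterised membrane protein, was the other risen gene that passed in all 12 fits, each of which kept the same detection filter. It gave 4.0, 4.57, 3.65 and 4.28 with wig-1 ASO and 2.18, 2.22, 1.52 and 1.46 with control ASO, with detection on all of the former arrays and none of the latter, a rise of at least 2.36-fold (limma adjusted p 0.00278). Tnni2, a troponin subunit of fast muscle, had the same pattern of detection between the ASO groups and rose at least 2.55-fold.

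Among the glial lists, reactive astrocyte genes were all higher (14 of 14, median 1.10) and 3 rose. Lcn2, a secreted carrier of bacterial iron chelators, gave 4.12, 6.51, 5.87 and 7.01 against 3.80, 2.67, 3.19 and 1.35, an 8.73-fold rise (limma adjusted p 0.0453, 2 control ASO arrays with detection) whose lowest wig-1 ASO array and highest control ASO array were 0.32 apart. Timp1, a metalloproteinase inhibitor, rose 6.67-fold. The filament protein Gfap gave 10.86, 11.71, 11.39 and 12.45 against 10.17, 9.89, 10.59 and 9.71 (2.85-fold, limma adjusted p 0.0498). Without replicate 1 the list had 9 rises. Homeostatic astrocyte markers (median 0.10), myelin genes (0.03), oligodendrocyte precursors (0.09), endothelial cells (0.19) and mural cells with fibroblasts (0.27) gave no call in either direction.

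**Figure D5:**
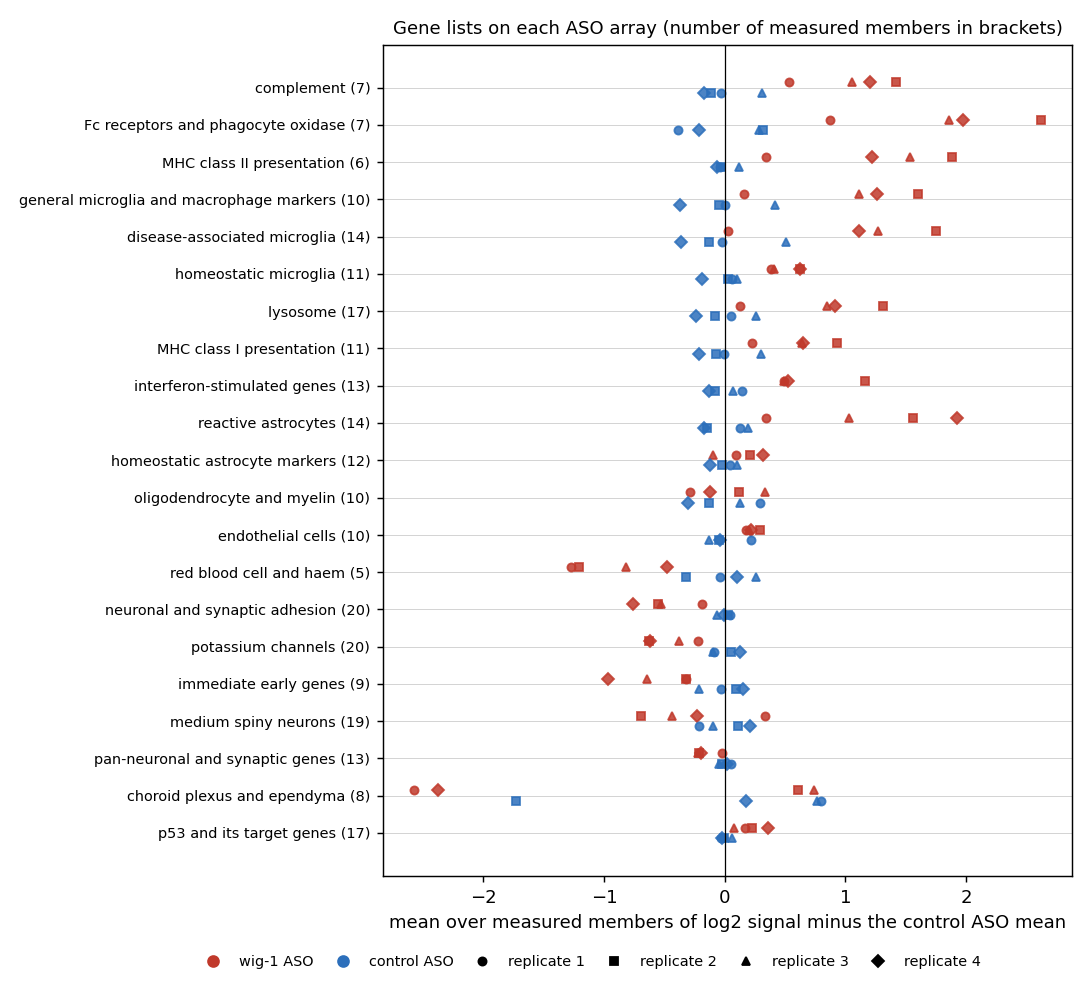
Mean over the measured members of each gene list of log2 signal minus the control ASO mean (horizontal axis) on each of the 4 wig-1 ASO and 4 control ASO arrays, with the number of members in brackets and symbols for replicates 1 to 4. Wig-1 ASO replicate 1 lies near the control ASO arrays for disease-associated microglia (0.03) and lysosome (0.13) but not for homeostatic microglia (0.38), and the choroid plexus list varies within both groups.

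Iron handling and matrix genes moved with the glial genes. Of 10 genes of haem breakdown and iron 3 rose, Slc40a1, the iron exporter ferroportin (1.05), Ftl1, the ferritin light chain (1.49), and Lcn2 (list median 0.73). Of 17 matrix genes and proteases Ecm1, a secreted matrix protein, rose 3.19-fold with 6.31 to 7.59 against 5.32 to 5.47 (limma adjusted p 0.0251, 6 of 12 fits), Lgals1 rose by 1.53 and Timp1 is named above, whereas Itgbl1, an integrin beta-like protein, fell by 0.70. In the death receptor and apoptosis list 1 of 15 rose, Casp8, the initiator caspase of death receptors (1.19, limma adjusted p 0.0419). The other 14 did not pass. Gclm, the regulatory subunit of the enzyme that limits glutathione synthesis, rose by 0.57 among 13 stress genes.

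Genes linked to wig-1 and p53 by function did not pass, with Zmat3 as the exception. Of 17 measured p53 targets none passed and 15 had a higher mean (median 0.15); the cell cycle inhibitor Cdkn1a was 5.57 to 7.06 against 4.90 to 5.59 (limma adjusted p 0.145). Of 13 AU-rich element binding proteins (median -0.01), 12 genes of deadenylation and messenger decay (-0.10), 12 of the RNA interference machinery (-0.08), 11 of RNase H and oligonucleotide binding (0.06), 12 of RNA polymerase III and TFIIH (-0.05), 16 aminoacyl-tRNA synthetases (0.03), 14 of mitochondrial peptidases and respiration (-0.07), 8 of cholesterol synthesis (-0.08), 8 of the protein kinase C family (-0.20) and 10 housekeeping genes (-0.01) none passed. The same held for 13 genes of the unfolded protein response (0.22), 9 of lipid handling (0.50), 7 of the cell cycle (0.79), 10 of striatal interneurons (-0.09), 8 of cortical neurons (-0.10) and 12 of thalamus, hypothalamus and septum (-0.01). The genes that the study lists as changed were chosen on these same wig-1 ASO and PBS arrays, so their direction is no independent evidence. Of the 12 measured on each side 4 of those listed as lower fell (Zmat3, Itgbl1, Adgrl3 and Kcnma1; a listed beta-globin entry names no single mouse copy and was left out of the count, and Hbb-bt is given above) and 3 of those listed as higher rose (Ecm1, Alox5ap and Casp8), with medians of -0.49 and 1.0.

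Promoter letters of the risen genes are shown because the risen genes include myeloid and interferon-responsive genes, classes that are known targets of the ETS factor PU.1 and of ISGF3. The windows were read from RefSeq promoter sequences (GRCm38.p6, 250 bases before to 50 after the start of each gene), which gave a promoter for 63 of the 79 genes that rose and for 23 of the 29 that fell. The PU.1 core GAGGAAGT, searched on both strands, was found in 3.69% of all promoters in the table, in 8 of the 63 risen genes (12.7%), 0 of the 23 fallen genes and 3.45% of the measured genes with a promoter. The capitals mark the core, or its reverse complement, and each line runs 5′ to 3′ on the strand of the gene.
Fcgr4, chr1:171018892-171018921, + strand: aaggctatttACTTCCTCtcttctagtcaa
C1qc, chr4:136893090-136893119, - strand: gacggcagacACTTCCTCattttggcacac
Havcr2, chr11:46454913-46454942, + strand: tcaggagttaGAGGAAGTaccattttaacc
Slamf9, chr1:172475342-172475371, + strand: aatgtgtacaGAGGAAGTtggagggagaat

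The core of the interferon-stimulated response element, taken as GAAA, any 2 bases and GAAA on either strand, was found in 3.99% of all promoters, in 5 of the 63 risen genes (7.94%), 2 of the 23 fallen genes (8.7%) and 3.54% of the measured genes. It does not overlap the PU.1 core in the windows shown. Ifitm3 holds it more than once, and Fcgr4 holds both motifs. Here the capitals mark the response element core.
Ifitm3, chr7:141010706-141010735, - strand: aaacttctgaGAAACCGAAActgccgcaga
Fcgr4, chr1:171018843-171018872, + strand: ggtgtttctgGAAAAGGAAActggtgagat
A match describes letters in these windows only. The motifs were chosen with the risen genes in view, and binding was not measured.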

How the data were processed

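RNA of 12 mice was labelled and hybridised to the MouseWG-6 v2 BeadChip of Illumina, with 1 mouse on each array (4 PBS, 4 wig-1 ASO, 4 control ASO). For each of 45281 probes the authors deposited an intensity on a linear scale with its detection p-value, and separately log2 values; they name lumi and siggenes. The deposited intensities hold the same sorted values on all arrays (2.00 to 14145), as quantile normalization leaves them, and the deposited log2 values equal log2 of the intensities to within 5.6e-09. Log2 intensities were therefore used as they stand. Shared distributions hide any shift common to all genes, and compress low signals. Background correction within lumi is not given in the sources used here.

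Probes with a detection p under 0.01 on 4 or more arrays were kept (17188), with gene symbols from the platform annotation given. A linear model over all 12 arrays was fitted with limma 3.58.1 (R 4.3.3; 9 residual degrees of freedom), with Benjamini-Hochberg adjustment over kept probes, and checked on simulated data. Exact permutation tests were two-sided. Nothing in the labels ties arrays to separate litters or days, and the number of arrays limits the precision. Replicate numbers did not pair the samples (correlations of deviations 0.012, -0.094, 0.126 and 0.011). Named genes are Zmat3, Htt, Trp53 and those followed by RT-PCR, the 12 largest rises and falls without overlap, and, in each of 55 lists, up to 4 members past the test or the 2 of smallest p. Csmd1, Nrxn3, Tmem119, P2ry12, C4a, Cacng2, Urah, Gpc5, Slamf9 and Havcr2 were named after their values were seen. Members, lists and motifs were chosen with earlier results of these data known. Gene span comes from RefSeq on GRCm38.p6.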

Additional observations from a re-analysis of the deposited data

Results flagged for a closer look

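In 10 of 242 groups of 4 arrays of the named genes, 1 array lay further from the rest than Dixon's 95% limit, and chance alone gives about 1 in 20 such groups. In the wig-1 ASO group these were Fcrls at 8.64 in replicate 4 (others 6.61 to 6.89), Kcnma1 at 6.16 in replicate 4 (6.57 to 6.59), Elavl2 at 8.33 in replicate 4 (8.80 to 8.89), S100a9 at 3.97 in replicate 2 (3.11 to 3.22), Grin2b at 8.05 in replicate 1 (7.46 to 7.51) and Cd79b at 1.48 in replicate 1 (2.88 to 3.06). In the control ASO group all 4 were replicate 3: C1qc at 8.19 (7.21 to 7.35), Fos at 7.46 (7.78 to 7.81), Htt at 2.24 (4.0 to 4.13) and Gtf2h4 at 5.64 (5.97 to 6.0). All values are log2 signals, and the cause was not tested.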

How the results depend on the processing

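Zmat3 kept its direction under all 24 alternatives, with differences of -1.68 to -2.0, and its call under all but the SAM statistic (-1.89, adjusted p 0.0614). Of 58 named genes past the test, Zmat3 included, all 58 kept their direction. Their groups did not overlap, so leaving out 1 array could not turn it, and this is no added support. Calls did not hold: over the 57 genes besides Zmat3, 698 of 1345 gene-by-setting results lost the call, 56 of the genes with SAM. Of 1498 such results of the other named genes 47 gained one. The counts of probes called, higher and lower (162, 109 and 53) became 7, 4 and 3 with only the 8 ASO arrays fitted, 1, 1 and 0 with SAM, 22, 14 and 8 with no filter, 258, 171 and 87 with detection on all 12 arrays, 427, 308 and 119 with 16 added before log2, 396, 263 and 133 with an intensity trend and robust variances, and 432, 308 and 124 with array weights. With the replicate number as a block they were 23, 11 and 12; the numbers share no more than a label, since the correlations of deviations lay between -0.094 and 0.126. Leaving out 1 array in turn gave 5 to 545 called, 3 to 401 higher and 2 to 144 lower. Centring, a further quantile step and the deposited log2 values changed no count, and the study's limits gave 227. At an unadjusted p under 0.05, SAM had 2333 probes. The cause of these differences was not tested. The median over genes of 500 kb or more stayed between -0.24 and -0.40. Dim genes are limited by detection: 5 risen and 3 fallen genes were detected on no array of the lower group.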

Other observations

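Fallen genes were unevenly placed. Chromosome 14 held 342 of the genes measured (3.41%) but 8 of the 29 that fell (27.6%), of which 3 were the near-identical copies 4930555G01Rik, Gm3696 and Gm5797, and the others were Kcnma1, Nefm, Stc1, Gpc5 and Itgbl1. Between 4930555G01Rik and Gm3696 lie 70 annotated genes, between Gm3696 and Gm5797 lie 9, and between Nefm and Stc1 lie 13. This was noticed after the genes were called and was not tested.

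On the 4 wig-1 ASO arrays the Zmat3 signal was 6.89, 6.63, 6.77 and 5.95. The median over genes of 500 kb or more was -0.174, -0.334, -0.295 and -0.517, which is the same order. The reactive astrocyte list (0.34, 1.56, 1.03 and 1.92) also kept that order, with higher values where Zmat3 was lower. The general microglia list (0.16, 1.60, 1.11 and 1.26) and the potassium channel list (-0.22, -0.63, -0.38 and -0.62) had other orders. Over 4 arrays this is a description, with no test.

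Histone transcripts were among the rises outside all lists, H4c1 by 0.80, H4c6 by 1.27 and H2ac15 by 0.89, together with S100a11 (1.39), S100a13 (0.75) and S100a16 (0.77), which were named after their values were seen. Histone genes of a class are near-identical, so that their probes may share targets.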
